A study of Homo sapiens with 22 samples.

Results

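The respiratory chain carries electrons from NADH and succinate to oxygen and uses the resulting proton gradient to make ATP. Its subunits come from 2 genomes, since a small core is encoded by mitochondrial DNA and all other subunits are encoded in the nucleus, translated in the cytosol and imported. This text follows the messages of the nuclear genes in melanoma cells that were either drug-susceptible or primed, meaning in a state that raises the chance to survive BRAF and MEK inhibitors. The genes were chosen by name from the gene tables of 3 single-cell experiments: symbols starting with NDUFA, NDUFB, NDUFC, NDUFS or NDUFV and a digit, with UQCR, ATP5 or COX4 to COX8, and SDHA, SDHB, SDHC and SDHD. The rule found 92 of 33538 genes in the first experiment and 90 of 36601 genes in each of the other 2, or 93 different symbols, of which 89 are in all 3 tables. No symbol had to be left out as a pseudogene. Of the 93, 83 encode a subunit: 36 of complex I (7 core and 29 accessory subunits), 4 of complex II, 8 of complex III, 18 of complex IV and 17 of complex V. The other 10 meet the rule by name and are no subunit. They are ATP5IF1, the inhibitor of ATP synthase, the supercomplex factor COX7A2L, the retrocopies ATP5MGL and UQCRHL, the readthroughs ATP5MF-PTCD1 and NDUFC2-KCTD14, the non-coding RNAs NDUFA6-DT, NDUFB2-AS1 and NDUFV2-AS1, and ATP5S. CYC1, CYCS and NDUFAB1 belong to the same machinery under other names and were kept as a comparison list.

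The first experiment profiled WM989, a BRAF-mutant melanoma cell line of which the clone A6-G3 was used, untreated and carrying lineage barcodes, with 12531 cells in 8 wells. The second profiled untreated WM983B, another melanoma line, of which the clone E9-D5 was used, with 1449 cells in 1 library. The third profiled 40021 WM989 cells in 8 libraries, 2 for each of 4 conditions: untreated, TGFB1 (the cytokine), TGFBRi (LY2109761, an inhibitor of its receptors) and PI3Ki (GDC-0941, an inhibitor of PI3 kinase). These cells also carried lineage barcodes by the study's methods, and each treatment ran for days, not hours, before harvest. In the fourth, WM989 cells were sorted into EGFR_High, NGFR-High, EGFR-NGFR-High and Mix, with 3 ATAC-seq libraries each, which measure open chromatin. The name Mix is that of the labels, while the study's methods describe a sort without either marker, and which of these it was is not settled. Every line is 1 clone, so the values describe these clones. The 8 wells of the first experiment are lanes loaded from fewer cultures, and which lanes share a culture was not in the labels used here. By the study's methods the cells of each sort were divided over 2 lanes, which with the replicates r1 and r2 of the cell labels makes 4 cultures, so an n of 8 wells counts lanes and its SD is in part that between lanes of a culture. Per the study's methods these cultures grew from sorted cells, either mixed or high in EGFR and NGFR, so the primed share and the levels of these markers are not those of unselected cells, and the sort behind each well was not in the cell labels. In the treatment experiment the sample labels call the replicates of a condition Mix and Primed, whereas the cells carry r1 or r2. How these names match was not settled, so r1 and r2 are used below and may differ in their starting cells.

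Each cell's state was the authors' own: 2843 of 12531 cells were primed in the first experiment, 731 of 1449 in WM983B, and 0.647% to 31.3% of a library in the treatment experiment. The labels were read against marker genes. In the first experiment EGFR stood at 48.1 CPM (UMIs per 1000000) when primed and 3.37 CPM when drug-susceptible, AXL at 42.3 and 0.469 CPM, and the melanocytic factor SOX10 at 7.09 and 129.6 CPM. In WM983B EGFR was low in both states, at 3.13 and 2.21 CPM, and SOX10 stood at 191.5 and 208.1 CPM. There AXL stood at 76.2 and 24.2 CPM, NGFR at 56.1 and 12.3 CPM and the pigment enzyme DCT at 87.1 and 423.4 CPM. VGF, another primed marker, went the other way in WM983B, at 10.85 and 18.27 CPM, and the pigment enzyme TYR differed little, at 57.07 and 67.91 CPM. In the treatment experiment EGFR stood at 15.88 and 1.226 CPM and SOX10 at 39.62 and 139.5 CPM. VGF again went against the other primed markers, at 594.5 and 1230.4 CPM. The 5 markers of other cell types (PTPRC, CD68, PECAM1, EPCAM, DCN) summed to 74.7 to 172.2 CPM in primed and 23.9 to 65.2 CPM in drug-susceptible cells over the 8 wells. Of these, PTPRC and EPCAM stayed under 0.0591 CPM, while CD68 stood at 91.8 and 44.8 CPM and PECAM1 at 22.8 and 0.183 CPM. Their part in the results was not tested. Cell barcodes shared between libraries were found in 38 of 12531 cells (0.303%) of the first and 388 of 40021 (0.970%) of the treatment experiment. Totals lay between 35882876 and 177318308 UMIs per well, at 102738398 UMIs for WM983B and between 70239657 and 122420544 UMIs per library of the treatment experiment. UMIs tag the 3′ ends of messages, so a level in CPM was not divided by gene length. A value summed over cells cannot tell fewer cells of a kind from less RNA per cell.

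Nuclear respiratory chain genes are known as targets of NRF1, of ETS factors such as GABPA and of YY1, whose motifs lie near many of their start sites. The promoters of 6 members that the results turn on are shown to let these letters be seen beside the values, as RefSeq gives them on GRCh38.p14, from 250 bases before the start to 50 bases after it, on the strand of the gene. Capitals mark the letters of the motif named for each, in either orientation. SDHB, the iron-sulfur subunit of complex II, lies at chr1:17053983-17054282 on the minus strand, and its capitals are NRF1, ETS and YY1 in that order. ATP5F1C, the gamma subunit of the rotating stalk of ATP synthase, lies at chr10:7787927-7788226 on the plus strand, with 2 overlapping NRF1 matches. NDUFS4, an accessory subunit of complex I, lies at chr5:53560389-53560688 on the plus strand, with YY1.
SDHB: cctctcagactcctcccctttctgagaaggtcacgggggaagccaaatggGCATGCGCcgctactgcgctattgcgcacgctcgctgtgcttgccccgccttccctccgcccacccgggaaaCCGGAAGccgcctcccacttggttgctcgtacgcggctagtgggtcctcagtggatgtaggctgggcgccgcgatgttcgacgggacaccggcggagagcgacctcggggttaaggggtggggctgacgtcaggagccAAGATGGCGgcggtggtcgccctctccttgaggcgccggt
ATP5F1C: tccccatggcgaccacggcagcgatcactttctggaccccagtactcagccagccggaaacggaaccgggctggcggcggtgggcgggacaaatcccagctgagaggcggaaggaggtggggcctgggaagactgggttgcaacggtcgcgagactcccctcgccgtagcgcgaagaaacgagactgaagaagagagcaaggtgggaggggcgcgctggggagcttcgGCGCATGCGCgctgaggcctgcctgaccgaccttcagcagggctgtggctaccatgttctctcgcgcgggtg
NDUFS4: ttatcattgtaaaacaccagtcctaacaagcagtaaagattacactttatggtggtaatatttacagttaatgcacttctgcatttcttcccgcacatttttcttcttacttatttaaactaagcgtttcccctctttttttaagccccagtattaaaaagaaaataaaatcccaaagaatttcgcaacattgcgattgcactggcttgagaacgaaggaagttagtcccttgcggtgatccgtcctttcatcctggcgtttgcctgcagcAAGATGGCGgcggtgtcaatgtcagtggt

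The other 3 were without an NRF1 or YY1 match, and the capitals mark other letters. ATP5MC1, 1 of 3 genes for the same c ring subunit of ATP synthase, lies at chr17:48892537-48892836 on the plus strand and NDUFS8, a core iron-sulfur subunit of complex I, at chr11:68030431-68030730 on the plus strand; both hold 4 CCAAT boxes. NDUFA4L2, the paralog of NDUFA4 known for its rise in low oxygen, lies at chr12:57240713-57241012 on the minus strand under the symbol COXFA4L2, with 2 matches of the core GCGTG of the hypoxia response element.
ATP5MC1: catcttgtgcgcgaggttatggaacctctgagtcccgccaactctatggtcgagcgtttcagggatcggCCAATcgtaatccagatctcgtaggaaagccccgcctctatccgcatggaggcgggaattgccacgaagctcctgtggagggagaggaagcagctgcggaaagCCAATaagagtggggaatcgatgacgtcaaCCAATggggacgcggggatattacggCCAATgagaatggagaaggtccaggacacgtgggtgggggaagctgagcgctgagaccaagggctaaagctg
NDUFS8: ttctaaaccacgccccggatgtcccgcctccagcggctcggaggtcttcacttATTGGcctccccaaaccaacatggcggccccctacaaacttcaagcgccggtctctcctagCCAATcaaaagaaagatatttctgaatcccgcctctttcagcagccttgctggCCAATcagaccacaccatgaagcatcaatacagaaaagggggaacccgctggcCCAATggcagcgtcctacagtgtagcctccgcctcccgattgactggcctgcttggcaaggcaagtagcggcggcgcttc
NDUFA4L2: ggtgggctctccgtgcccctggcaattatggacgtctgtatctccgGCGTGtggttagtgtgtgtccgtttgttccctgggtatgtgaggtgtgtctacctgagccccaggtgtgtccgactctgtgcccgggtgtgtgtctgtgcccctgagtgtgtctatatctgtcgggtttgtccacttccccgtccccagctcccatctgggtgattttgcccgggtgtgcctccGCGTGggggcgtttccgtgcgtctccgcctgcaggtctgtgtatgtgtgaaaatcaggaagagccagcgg

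Of the 93 members, 75 matched a promoter in the RefSeq table, and 72 of these were also tested in the treatment experiment. Among these 72, NRF1 (GCATGCGC) was found in 14 promoters (19.4%), against 3.27% of all 27305 promoters and 5.27% of the promoters of 12237 genes tested. YY1 (AAGATGGCG) was found in 9 (12.5%), against 1.85% of all promoters and 3.54% of tested genes, and ETS (CCGGAAG) in 20 (27.8%), against 10.7% and 17.8%. The shares of the other letters lay near those of tested genes: the CCAAT box in 34.7% against 36.6% (35.7% of all promoters), SP1 (GGGCGG) in 62.5% against 66.6% (44.6%), ACGTG in 26.4% against 25.9% (21.6%) and GCGTG in 51.4% against 49% (36.3%). Both strands were searched, and NDUFA6 and NDUFA6-DT share their start region. A match is a description of letters, not a site shown to be used.

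The first question is how the chain's messages differ between primed and drug-susceptible cells. In untreated WM989 the members together were lower in primed cells, in every well and in every complex. No test was made, because the authors' states rest on the same counts. Summed over the members, primed cells held 21897 to 24787 CPM over the 8 wells and drug-susceptible cells 25437 to 28292 CPM, and the ranges of the states did not overlap. Within wells the ratio of primed to drug-susceptible cells was 0.881 ± 0.0251 (SD, n = 8 wells), between 0.829 and 0.909, and it was under 1 in each of the 8. All cells pooled gave 23961 and 26436 CPM, a ratio of 0.906. The pooled ratio weights wells by their cells, and because primed cells made up 6.85% to 79.7% of a well, a pooled ratio of a gene can lie outside the range of its wells.

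**Figure D1:**
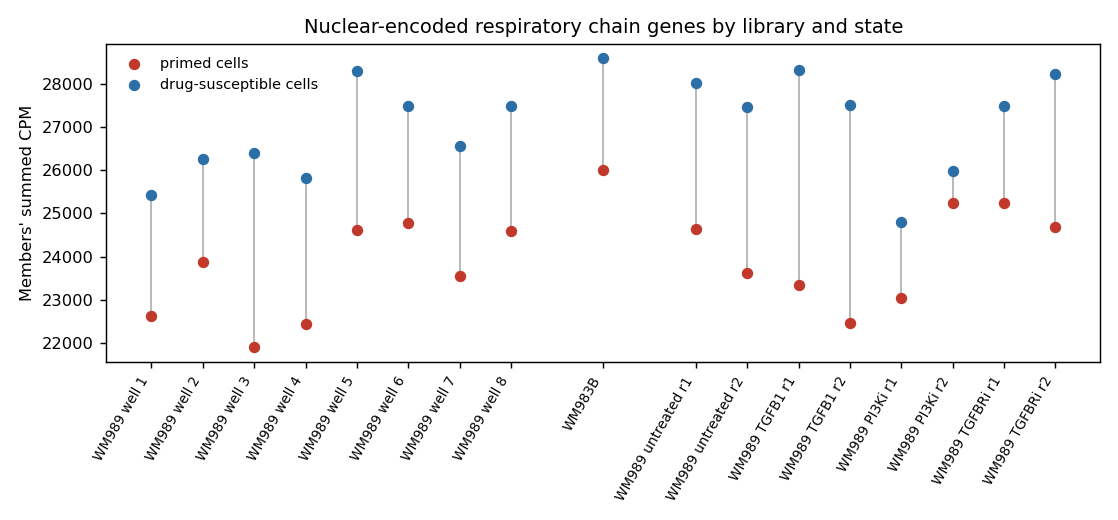
Summed CPM of the members (vertical axis, CPM) in primed and drug-susceptible cells of each library, with a line joining the states of a library. The primed point lies under the drug-susceptible point in each of the 8 WM989 wells, in WM983B and in each of the 8 libraries of the treatment experiment.

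All complexes were lower in primed cells in each of the 8 wells. The mean ratio within wells was 0.880 ± 0.0239 for complex I, which takes electrons from NADH, and 0.805 ± 0.0248 for complex II, which takes them from succinate. It was 0.865 ± 0.0214 for complex III, 0.913 ± 0.0233 for complex IV, which hands electrons to oxygen, and 0.862 ± 0.0392 for complex V, the ATP synthase (SD, n = 8 wells each). Complex II had the lowest and complex IV the highest of these means. Within complex I the 29 accessory subunits had a mean ratio of 0.865 ± 0.0242, lower in 8 of 8 wells, while the sum of the 7 core subunits had one of 0.990 ± 0.0420, lower in 4 of 8 wells. By gene the kinds of subunit lay closer, with median pooled ratios of 0.945 for core and 0.924 for accessory subunits past 20 CPM, and 3 of 7 and 14 of 28 lower in all 8 wells. The core sum includes NDUFS8, described below. In the treatment experiment the core sum had a mean ratio of 0.926 ± 0.0810 and was lower in 7 of 8 libraries.

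Gene by gene the picture was mixed. Of the 92 members, 78 reached 20 CPM in a state, and 45 of them were lower in primed cells in all 8 wells, against 38.2% of the 6316 genes that reached this level. Only 5 were higher in all 8 wells, against 29.8% of genes. In G1 cells alone these counts were 29 lower and 3 higher, against 31.0% and 27.3% of genes. The lower members thus went from 45 to 29, a larger relative fall than that of all genes, from 2414 to 1909. With mitochondrially encoded genes left out of the totals the counts were 55 and 2, against 44.5% and 24.7%. With cytosolic ribosomal proteins left out as well they were 58 and 1, against 47.8% and 21.8%. The median pooled ratio of the 78 was 0.912, and that of all genes 0.999. In complex V 13 of 17 members were lower in all 8 wells, in complex III 5 of 8, in complex IV 7 of 11, in complex II 2 of 4 and in complex I 17 of 35.

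The ATP synthase held several of the members with the lowest pooled ratios. ATP5MC1 stood at 280.1 to 429.6 CPM in primed cells (median 347.8 over wells) and 486.8 to 682.9 CPM in drug-susceptible cells (median 560.3). The wells of the states did not overlap, and the mean log2 ratio within wells was −0.65 ± 0.20 (SD, n = 8). ATP5F1C stood at 77.0 to 113.1 CPM (median 94.3) against 129.3 to 186.1 CPM (median 166.6), again without overlap, with a mean log2 ratio of −0.77 ± 0.05. ATP5MC3, another gene of the c ring, stood at 584.8 to 718.3 CPM (median 659.4) against 915.8 to 1049.8 CPM (median 1015), without overlap, with a mean log2 ratio of −0.60 ± 0.08. The third c ring gene, ATP5MC2, differed less, with a mean log2 ratio of −0.12 ± 0.07, lower in 8 of 8 wells. The 3 genes encode the same mature subunit and differed in the size of their ratio. ATP5PB, a subunit of the peripheral stalk, had a mean log2 ratio of −0.54 ± 0.11 and was lower in 8 of 8 wells.

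The opposite end of the list also held ATP synthase genes. ATP5PD, another subunit of the peripheral stalk, stood at 257.3 to 325.5 CPM in primed cells (median 318.0) and 167.3 to 291.5 CPM in drug-susceptible cells (median 227.7). It was higher in primed cells within each of the 8 wells, with a mean log2 ratio of 0.41 ± 0.20, though the ranges of the states overlapped. ATP5MG, a small subunit of the membrane part, was also higher in 8 of 8 wells, with a mean log2 ratio of 0.16 ± 0.08. ATP5F1E, the epsilon subunit, was higher in 6 of 8 wells (ratios 0.879 to 1.17).

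In complex II the 4 genes did not move together. SDHB stood at 83.1 to 114.8 CPM in primed cells (median 92.6) and at 116.4 to 156.3 CPM in drug-susceptible cells (median 149.4), without overlap, and its mean log2 ratio was −0.58 ± 0.12. SDHC, a membrane anchor, stood at medians of 108.6 CPM against 139.8 CPM over the wells, also without overlap (mean log2 ratio −0.37 ± 0.09). SDHA, the flavoprotein that oxidises succinate, was lower in 3 and higher in 5 of the 8 wells, with ratios of 0.817 to 1.33. SDHD, the other anchor, was lower in 7 of 8 wells, with a mean log2 ratio of −0.18 ± 0.13.

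Complex I also held members at both ends. NDUFS8 had the highest pooled ratio of the 78 and was higher in primed cells in 8 of 8 wells, at 129.2 to 233.8 CPM (median 175.7) against 97.4 to 160.3 CPM (median 126.7). The ranges overlapped because the level differed between wells, while the ratio within wells lay between 1.26 and 1.60 (mean log2 ratio 0.50 ± 0.12). NDUFB4, an accessory subunit, was higher in 8 of 8 wells by a mean log2 ratio of 0.12 ± 0.09. The accessory subunits NDUFC2 and NDUFC1 were lower in 8 of 8 wells, with mean log2 ratios of −0.67 ± 0.07 and −0.67 ± 0.16. NDUFA3 had no direction, with 4 wells lower and 4 higher.

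In complex III UQCRC2, UQCRFS1, UQCRH, UQCRQ and UQCR10 were lower in 8 of 8 wells; UQCRC2, a core protein, had a mean log2 ratio of −0.40 ± 0.23 and UQCRFS1, the Rieske iron-sulfur protein, one of −0.44 ± 0.08. In complex IV COX5A, at 236.5 to 400.1 CPM (median 278.0) in primed and 365.1 to 524.2 CPM (median 427.7) in drug-susceptible cells, had a mean log2 ratio of −0.58 ± 0.12 and was lower in 8 of 8 wells. COX5B, the neighbour of COX5A in name and a subunit of the same complex, was higher in 8 of 8 wells, with a mean log2 ratio of 0.13 ± 0.05.

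**Figure D2:**
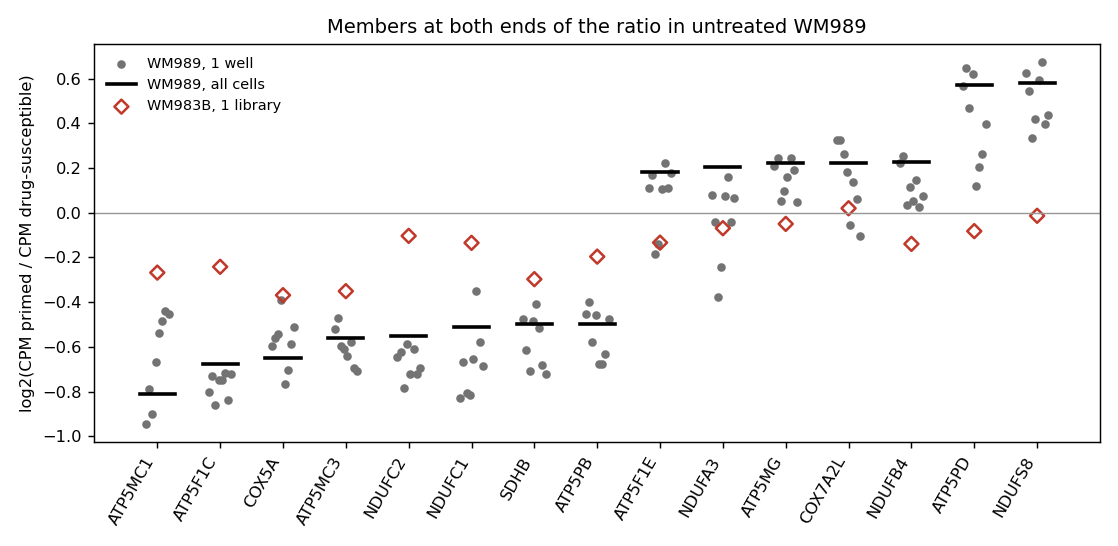
Log2 ratio of CPM in primed over drug-susceptible cells (vertical axis) for the 8 members with the lowest pooled ratio in untreated WM989 and for those named at the high end. Grey points are the 8 wells, the black line is all cells pooled and the open diamond is the WM983B library; the points of ATP5MC1, ATP5F1C, COX5A, ATP5MC3, NDUFC2, NDUFC1, SDHB and ATP5PB all lie under 0.

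Several subunits exist as isoforms of different tissues, and the forms known from muscle, heart, lung or testis were at or near 0. COX7A1, a muscle form, had 0 UMIs in all 3 experiments, which in the first allows up to 0.0156 CPM in the primed and 0.00537 CPM in the other state (3 counts of the total, counting error only). COX4I2, a lung form, had 0 UMIs in primed and 4 in drug-susceptible cells of the first experiment and 0 elsewhere. COX6A2, a muscle form, had 1 UMI in the first and 1 in the third experiment. In the first experiment COX7B2 had 2 UMIs in primed and 8 in drug-susceptible cells, COX8C 57 and 150 and COX6B2, a testis form, 37 and 71. Against this, the common forms were abundant, in drug-susceptible cells with COX4I1 at 553.7, COX6A1 at 467.5, COX6B1 at 439.3, COX7A2 at 472.4, COX7B at 402.2 and COX8A at 469.4 CPM. Of these COX6A1, COX6B1, COX7A2 and COX7B were lower in primed cells in 8 of 8 wells, COX8A was lower in 5 and COX4I1 in 2. COX4I1 is an example of the pooled ratio going against the wells, since it was 0.921 while 6 wells were higher. NDUFA4, the common form, was lower in 8 of 8 wells by a mean log2 ratio of −0.11 ± 0.07, at 746.6 and 759.2 CPM pooled. Its paralog NDUFA4L2 was low, at 3.81 CPM (primed) and 1.70 CPM (drug-susceptible), and higher in 6 of 8 wells.

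Among the members that are no subunit, COX7A2L, at 245.0 CPM (primed) and 210.0 CPM (drug-susceptible), was higher in 6 of 8 wells, and ATP5IF1, at 277.9 and 271.2 CPM, in 5. UQCRHL stood at 9.07 and 12.3 CPM, lower in 8 of 8 wells, and ATP5MGL at 2.96 and 1.94 CPM, higher in 8 of 8. Both are retrocopies, of UQCRH and ATP5MG, so reads may be split between copy and parent and these values are uncertain. ATP5S stood at 23.4 and 27.3 CPM, lower in 8 of 8 wells. The readthrough ATP5MF-PTCD1 had 30 UMIs in primed and 40 in drug-susceptible cells, and NDUFC2-KCTD14 had 1 and 7. The antisense RNAs NDUFB2-AS1, at 1.63 and 2.03 CPM, and NDUFV2-AS1, at 0.921 and 0.824 CPM, were lower in 6 and in 4 of the 8 wells.

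In these wells the mitochondrially encoded subunits of the same complexes differed more. The 13 mitochondrially encoded messages summed to 73642 to 109291 CPM in primed and 115263 to 164126 CPM in drug-susceptible cells, without overlap, with a mean ratio within wells of 0.641 ± 0.0496. All 13 had a pooled ratio under 1, and 12 were lower in all 8 wells. MT-CYB had a pooled ratio of 0.471, MT-CO3 of 0.536, MT-CO1 of 0.654 and MT-ND1, the exception, of 0.901 with 7 wells lower. CPM is a share of all UMIs, so the totals matter. With mitochondrially encoded genes left out of the totals, the members' pooled ratio was 0.846 in place of 0.906. With cytosolic ribosomal proteins left out as well it was 0.788.

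The other lists had these counts in the first experiment, to be read beside 38.2% of 6316 genes lower and 29.8% higher in all 8 wells. CYC1, CYCS and NDUFAB1 were lower in 8 of 8 wells, with pooled ratios of 0.615, 0.614 and 0.752. Of 11 complex I assembly factors 9 were lower and none higher in all 8 wells, and of 18 complex IV assembly factors 11 were lower and 2 higher. For complex II and III assembly factors 2 of 3 and 3 of 6 were lower, and 1 and none higher, for complex V assembly 1 of 2 was lower, and of 6 regulators 5. Of 11 genes of the TCA cycle 7 were lower and 1 higher, and of 75 mitochondrial ribosomal proteins 49 were lower and 5 higher. Of 82 cytosolic ribosomal proteins 43 were lower and 8 higher in all 8 wells, with a median ratio of 0.815. Of 16 glycolysis genes 4 were lower and 4 higher in all 8 wells, and their summed CPM was higher in primed cells in each of the 8, with a mean ratio of 1.19 ± 0.0949. PPARGC1A, a coactivator of mitochondrial genes, stood at 5.46 CPM (primed) and 5.98 CPM (drug-susceptible), lower in 6 of 8 wells. In the treatment experiment it was higher in primed cells in 6 of 8 libraries, though lower pooled, at 3.96 and 5.31 CPM.

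The authors also called a cell cycle phase for each cell. The pooled ratio of the members was 0.939 in G1, 0.899 in S and 0.909 in G2M cells. By cluster, the 3 primed clusters 2, 8 and 9 held 24241, 23089 and 23870.0 CPM. The drug-susceptible clusters 0 and 1 held 28019 and 27091 CPM, but clusters 4 and 10, also drug-susceptible, held 24066 and 24703 CPM. The level of cluster 4 lay among those of the primed clusters, while its mitochondrially encoded share, 15.4% of UMIs, lay above their 7.64% to 10.4%. Its cytosolic ribosomal share, 24.2%, also lay above their 16.4% to 22.4%. Both classes are part of the CPM totals, and levels by cluster without them were not computed, so the low level of cluster 4 holds for CPM of all UMIs only. For ATP5MC1 all 3 primed clusters (325.3 to 401.3 CPM) lay under each drug-susceptible cluster (441.5 to 673.4 CPM). For NDUFS8 all 3 (159.2 to 213.0 CPM) lay above each drug-susceptible cluster (116.8 to 145.7 CPM). These members had the lowest and highest pooled ratio in the same cells. ATP5MC3, COX5A and NDUFC1 were also separated by cluster, but ATP5F1C, SDHB, ATP5PB and NDUFC2 were not. In drug-susceptible cluster 3 ATP5F1C stood at 82.45 CPM, beside 85.44 to 100.1 CPM in the primed clusters. SDHB stood there at 97.01 CPM, beside 93.02 to 100.7 CPM.

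**Figure D3:**
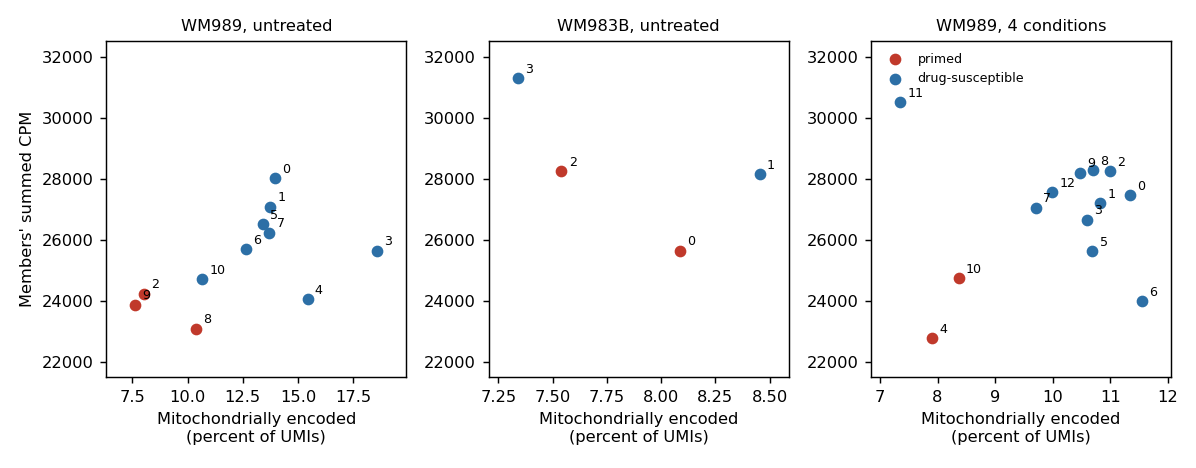
Summed CPM of the members (vertical axis, which does not start at 0) against the share of UMIs from mitochondrially encoded genes (horizontal axis, percent) for each of the authors' clusters in the 3 experiments. Primed clusters are red and drug-susceptible ones blue, and numbers are the cluster names. In untreated WM989 cluster 4, at 24066 CPM and 15.4%, lies as low as the primed clusters but to their right. The CPM totals include mitochondrially encoded and cytosolic ribosomal UMIs, whose shares differ between clusters.

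In WM983B, a different line, the members together were also lower in primed cells, in 1 library without replicates. Its primed cells held 25994 CPM and its drug-susceptible cells 28591 CPM, a ratio of 0.909 beside 0.906 in pooled WM989 cells. With mitochondrially encoded genes left out of the totals the lines lay further apart, at 0.906 and 0.846, and the difference between them was not tested. Of 78 members past 20 CPM, 70 had a lower CPM in primed cells, against 45.2% of 6856 genes, and the median ratio was 0.905 against 1.02 for all genes. All 17 of complex V and all 8 of complex III were lower. The complexes stood at ratios of 0.917, 0.917, 0.881, 0.943 and 0.870 from I to V. Core and accessory subunits of complex I stood at 0.910 and 0.918. The mitochondrially encoded messages, at 80155 and 82992 CPM, had a ratio of 0.966, closer to 1 than that of the members, and 3 of the 13 were higher in primed cells.

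The members at the low end in WM983B were NDUFB6, at 86.1 CPM when primed and 111.5 CPM when drug-susceptible (exact Poisson 95% intervals 83.5 to 88.7 and 108.7 to 114.4, which cover counting error only), COX7B (ratio 0.773), COX5A (0.775), ATP5MC3 (0.784) and SDHB (0.814). The high end lay close to 1, with NDUFA4 at 1.04, NDUFA11 and ATP5IF1 at 1.03, NDUFB11 at 1.03 and COX7A2L at 1.01. NDUFA4 was the most abundant of these, at 2531 and 2434 CPM. Of the other complex II genes SDHA had a ratio of 0.943 and SDHD of 0.906, and SDHC stood at 172.8 and 172.4 CPM. Clusters overlapped in this line: primed clusters 0 and 2 held 25651 and 28250.0 CPM and drug-susceptible clusters 1 and 3 held 28154 and 31298 CPM.

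The direction in the first experiment was then set beside the other tables. Of the 44 members lower in all 8 WM989 wells that the other tables hold, 40 were lower in WM983B, a share of 90.9% beside 74.6% of all genes that were lower in all 8 wells. Whatever their direction in WM989, 70 of 78 members past 20 CPM were lower in WM983B, so this share by itself shows no agreement gene by gene. In both untreated libraries of the treatment experiment 41 of the 44 were lower, 93.2% beside 84.0% of genes, and in all 8 libraries of that experiment 24, 54.5% beside 40.8%. The same limit holds there. Whatever their direction in the first experiment, 68 of 78 members past 20 CPM were lower over its pooled cells, and 30 in all 8 libraries. Of the 5 that were higher in all 8 wells, none was higher in WM983B, where 83.1% of all such genes and 8 of 78 members past 20 CPM were. In both untreated libraries 2 of the 5 were higher, where 87.7% of genes were. The same number, 2, were higher in all 8 treatment libraries, beside 59.1% of genes. The 5 stood in WM983B at 0.991 (NDUFS8), 0.966 (ATP5MG), 0.945 (ATP5PD) and 0.908 (NDUFB4) and 0.896 (COX5B).

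The treatment experiment, on separate cultures of WM989, gave 8 further pairs of states. The members' sum was lower in primed cells in each of the 8 libraries, with a ratio of 0.884 ± 0.0532 (SD, n = 8), between 0.816 and 0.972. Per the study's methods 1 starting well supplied all 4 plates of a replicate, so the pairs are not independent and the SD mixes conditions and shared cultures. Primed cells were mostly in cluster 4 in the TGFB1 libraries and mostly in cluster 10 in the others. The 8 libraries held between 25 and 1757 primed cells. Of 78 members past 20 CPM, 30 were lower in all 8 libraries, against 18.2% of 6138 genes, and 3 were higher in all 8, against 20.3%. The 3 were NDUFS8, NDUFB11 and COX5B. NDUFS8, at 162.0 and 128.6 CPM pooled, had ratios of 1.05 to 1.28. ATP5MC1 had ratios of 0.555 to 0.688, ATP5F1C of 0.613 to 0.888 and SDHB of 0.436 to 0.825, each lower in 8 of 8 libraries, while ATP5PD, higher in all 8 wells of the first experiment, was higher in 5 of the 8 libraries, with a mean log2 ratio of 0.05. The lowest pooled ratio was 0.628, that of NDUFA7, an accessory subunit of complex I, at 101.1 and 161.0 CPM. It lay outside the 0.640 to 0.864 of its libraries, whose mean log2 ratio of −0.47 was less low than the −0.69 of ATP5MC1. In the first experiment NDUFA7 had only 14.6 and 16.6 CPM pooled and did not reach 20 CPM. It stood there at 1.77 to 4.43 CPM in the states of the 4 wells of r1 and at 23.1 to 41.8 CPM in those of r2. Such gaps between r1 and r2 were not particular to NDUFA7. UQCR11 stood at 166.3 to 272.9 CPM in r1 and 601.1 to 701.5 CPM in r2. COX4I1 differed the other way, at 573.6 to 741.2 CPM in r1 and 282.4 to 376.8 CPM in r2. The reason for these gaps was not tested.

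The second question is how the treatments change these genes. For each library all cells were summed, and each treatment was compared with untreated by edgeR's quasi-likelihood test over 18389 genes with Benjamini-Hochberg adjustment, of which 86 of the 90 members were tested. All 3 comparisons share the 2 untreated libraries, so their values are given side by side and not as independent evidence. Levels below are CPM after TMM scaling, in the order r1, r2, and a standard error (SE) stands beside each log2 fold change. The p-values measure the spread between these libraries.

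The messages at the top were ATP5F1E, at 1687 and 1575 CPM in the untreated libraries, UQCRH at 1076 and 963.8, COX7C at 941.6 and 849.1, ATP5MC3 at 883.0 and 856.6 and NDUFC2 at 861.0 and 873.7 CPM. Of these, ATP5F1E, UQCRH and COX7C passed the test under no treatment.

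TGFB1 lowered 11 members and raised none, against 12.7% and 16.3% of all genes called lower and higher. The share of 11 in 86 is thus near that of all genes, while no member was among the genes that rose. The median log2 fold change of the members was −0.08, against 0.01 for all genes, and 64 of 86 lay under 0. The 11 were 4 of 36 in complex I, 2 of 4 in complex II, 1 of 8 in complex III, 4 of 17 in complex V and none of 14 in complex IV. Without the TGFB1 r2 library 3 members were called lower, against 8.93% of all genes, without Control r2 6, against 7.38%, and without TGFB1 r1 7, against 6.28%. Without TGFBRi r1 or r2 17 were called lower, against 15.4% and 15.6%. Without the replicate block, the term for r1 and r2, 7 were called lower, against 7.82%.

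SDHB fell most, from 100.7 and 111.5 CPM in untreated to 79.7 and 83.8 CPM in TGFB1 libraries. The groups did not overlap, and the log2 fold change was −0.38 ± 0.08 (SE; edgeR adjusted p = 5.7e-04). SDHD also fell, from 40.8 and 50.4 CPM to 37.0 and 40.9 CPM (−0.22 ± 0.08, adjusted p = 0.030 by edgeR). Its groups overlapped.

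In ATP synthase 3 of 5 subunits of the F1 head fell. ATP5F1A, the alpha subunit, ATP5F1B, the catalytic beta subunit, and ATP5F1C, the gamma shaft, had edgeR adjusted p-values of 0.021, 0.0016 and 0.0032. ATP5F1B went from 452.4 and 453.3 to 372.5 and 362.3 CPM (log2 fold change −0.30 ± 0.07). ATP5F1C went from 115.1 and 126.2 to 99.3 and 94.5 CPM (−0.32 ± 0.08). In both the treated libraries lay under the untreated ones. ATP5MC3 fell by 0.26 ± 0.08 on the log2 scale (edgeR adjusted p = 0.011), whereas ATP5MC1 stood at 692.9 and 628.5 CPM untreated and 649.9 and 589.9 CPM with TGFB1 and did not pass the test.

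In complex I the called members named by the rule were NDUFA7 (log2 fold change −0.33 ± 0.07, edgeR adjusted p = 6.6e-04), NDUFC1 (−0.29 ± 0.07, adjusted p = 0.0032) and NDUFB6 (−0.21 ± 0.07, adjusted p = 0.035). NDUFC1 is an accessory subunit of the membrane arm, as is NDUFB6. In complex III UQCRC2 fell from 94.1 and 91.4 to 79.1 and 76.0 CPM (−0.26 ± 0.06, edgeR adjusted p = 0.0031).

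The share of primed cells moved with these falls, from 2.26% and 4.47% in the untreated to 29.1% and 31.3% in the TGFB1 libraries. When only drug-susceptible cells were summed, 2 members were called lower and none higher, against 6.32% and 8.56% of 17914 genes: SDHB (log2 fold change −0.27, edgeR adjusted p = 0.019) and NDUFA7 (−0.21, adjusted p = 0.047). The median of the members was then −0.01. The drug-susceptible cells of these groups lay in different clusters: cluster 3 held 2182 and 1619 cells of the TGFB1 libraries but 56 and 59 of the untreated ones, and cluster 0 held 119 and 115 against 1798 and 1173. SDHB stood at 84.5 CPM in cluster 3 and 103.1 CPM in cluster 0, and NDUFA7 at 145.7 and 171.0 CPM. When only primed cells were summed, of which untreated libraries held few, UQCRC1, a core protein of complex III, was called higher (0.66 ± 0.14, edgeR adjusted p = 7.5e-04) and NDUFC1 lower (−0.47 ± 0.14, adjusted p = 0.015) among 79 members tested, while 679 and 775 of 10930 genes were called higher and lower. This fit set different clusters against each other, since 1548 and 1706 primed cells of the TGFB1 libraries were in cluster 4, which held 5 and 6 untreated cells, and 89 and 159 untreated primed cells were in cluster 10. UQCRC1 stood at 248.6 CPM in cluster 4 and 171.5 CPM in cluster 10, and NDUFC1 at 84.8 and 127.6 CPM.

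**Figure D4:**
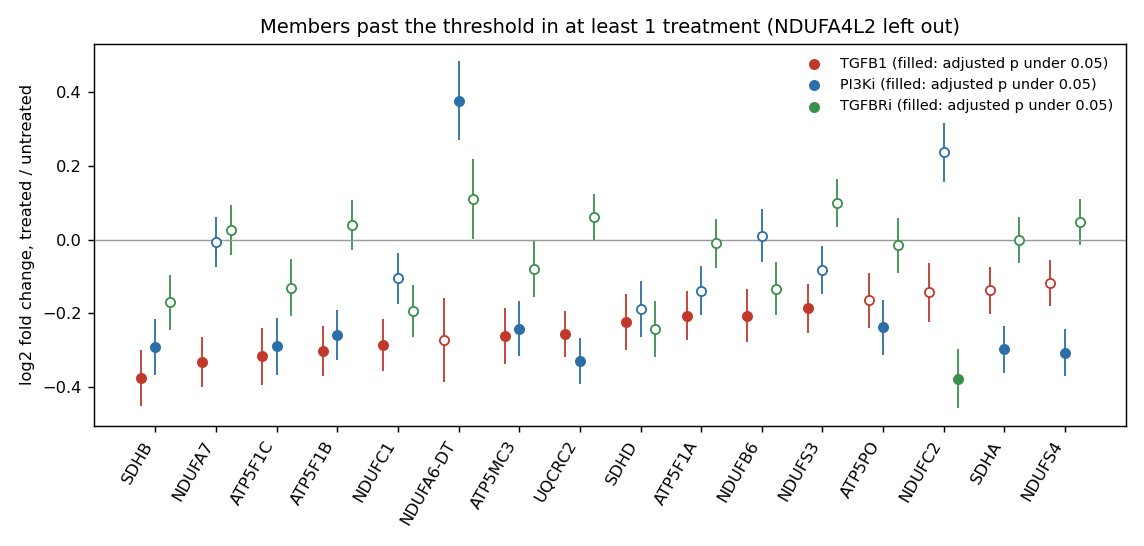
Log2 fold change over untreated (vertical axis) with its standard error for members past the threshold in at least 1 treatment, NDUFA4L2 left out for scale. Filled points passed an adjusted p of 0.05 and open points did not; SDHB, ATP5F1C, ATP5F1B, UQCRC2 and ATP5MC3 are filled for both TGFB1 and PI3Ki and NDUFC2 for TGFBRi.

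PI3Ki lowered 9 members and raised 1, against 6.83% and 5.83% of all genes. The 9 became 3 without Control r2 or without PI3Ki r1, where 2.94% and 3.05% of all genes were called lower. They became 16 without TGFBRi r1 and 17 without TGFBRi r2, beside 9.24% and 9.36% of genes, and 4 without the replicate block, beside 2.11%. SDHB went to 83.9 and 89.4 CPM (log2 fold change −0.29 ± 0.08, edgeR adjusted p = 0.013), and SDHA went from 81.1 and 78.8 to 68.9 and 61.3 CPM (−0.30 ± 0.06, adjusted p = 0.0029). For both the treated libraries lay under the untreated ones. Of ATP synthase ATP5F1C (−0.29 ± 0.08, edgeR adjusted p = 0.015), ATP5F1B (−0.26 ± 0.07, adjusted p = 0.013), ATP5MC3 (−0.24 ± 0.08, adjusted p = 0.038) and ATP5PO, the stalk subunit that links the head to the membrane part (−0.24 ± 0.07, adjusted p = 0.039), were called lower.

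NDUFS4 went from 74.3 and 74.3 to 57.7 and 62.4 CPM under PI3Ki (log2 fold change −0.31 ± 0.06, edgeR adjusted p = 0.0022), and UQCRC2 to 72.8 and 74.7 CPM (−0.33 ± 0.06, adjusted p = 0.0010). The largest change of any member was that of NDUFA4L2, from 1.59 and 1.27 to 0.387 and 0.547 CPM (−1.54 ± 0.20, adjusted p = 1.3e-05), at a low level. The only rise was that of the non-coding NDUFA6-DT, from 3.34 and 2.82 to 4.03 and 3.93 CPM (0.38 ± 0.11, edgeR adjusted p = 0.022), while NDUFA6, with which it shares its start region, did not pass the test. When only drug-susceptible cells were summed, the same 9 and 1 members were called, against 6.22% and 5.89% of genes. Here too the clusters differed, with 1104 and 1135 cells of the PI3Ki libraries in cluster 6 and 129 and 39 of the untreated ones. The primed share was 0.647% and 1.21% under PI3Ki.

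The size of the PI3Ki result depended on how the libraries were scaled. After TMM scaling the median log2 fold change was −0.05 for the members and 0.00 for all genes. With plain library totals, an alternative chosen after seeing the data, it was −0.15 for the members and −0.10 for all genes, and 34 members were called lower and none higher, beside 2963 lower and 560 higher of 18389 genes. After TMM scaling 59 of 84 cytosolic ribosomal proteins rose under PI3Ki and none fell (median 0.32), against 5.83% and 6.83% of all genes. In plain CPM the members summed to 27953 and 27357 untreated, 24786 and 25968 under PI3Ki, 27066 and 26185 under TGFB1 and 27458 and 28108 under TGFBRi.

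TGFBRi, the inhibitor of the TGFB1 receptors, lowered 1 member and raised none, against 1.45% and 1.09% of all genes, and 14 of the 86 members had an unadjusted p under 0.05, beside 2395 of the 18389 genes. The 1 was NDUFC2, an accessory subunit of complex I, which stood at 861.0 and 873.7 CPM untreated and 690.9 and 643.5 CPM with TGFBRi (log2 fold change −0.38 ± 0.08, edgeR adjusted p = 0.0097). In drug-susceptible cells the call was the same, NDUFC2 alone at −0.38 (adjusted p = 0.0063), against 1.59% lower and 1.22% higher of all genes. It was lost when the Control r1, the Control r2 or the TGFBRi r2 library was left out, and without the replicate block (adjusted p = 0.16), while 7 members were called lower and 7 higher without the TGFBRi r1 library, where 3.04% and 2.98% of all genes were called lower and higher. In the PI3Ki libraries NDUFC2 stood at 948.6 and 1097 CPM and in the TGFB1 libraries at 807.6 and 763.3 CPM, and it passed the test in neither.

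**Figure D5:**
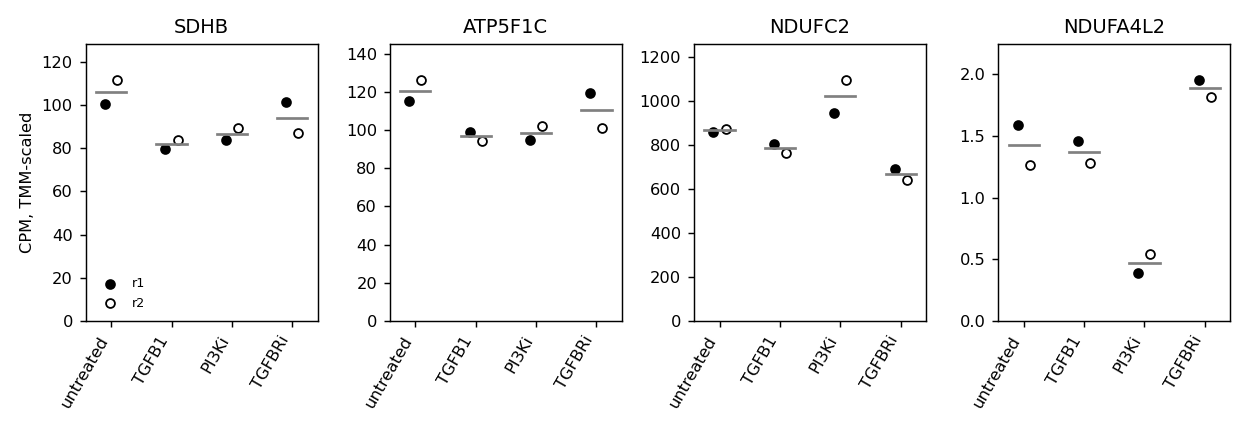
CPM after TMM scaling (vertical axes, each from 0) of SDHB, ATP5F1C, NDUFC2 and NDUFA4L2 in the 8 libraries of the treatment experiment. Filled points are r1, open points r2 and the line is their mean; SDHB is lower with TGFB1 and PI3Ki, NDUFC2 with TGFBRi and NDUFA4L2, at under 2 CPM, with PI3Ki.

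The neighbouring lists give the scale of these changes. Under TGFB1 6 of 13 mitochondrially encoded messages fell and none rose, with log2 fold changes of −0.42 for MT-ND4 and MT-ND4L, −0.34 for MT-ND6 and −0.31 for MT-CO1. Also under TGFB1 6 of 12 TCA cycle genes and 20 of 78 mitochondrial ribosomal proteins fell, against 12.7% of all genes. In drug-susceptible cells alone 3 of 13 mitochondrially encoded messages, 3 of 12 TCA cycle genes and 4 of 78 mitochondrial ribosomal proteins were called lower, against 6.32% of genes, and 1 TCA cycle gene was called higher. Under PI3Ki none of the 13 mitochondrially encoded messages passed the test. There 5 of 12 TCA cycle genes and 15 of 19 glycolysis genes fell, the latter with a median of −0.51, against 6.83% of all genes. Under TGFBRi MT-ND6 rose (0.30, edgeR adjusted p = 0.041) and 4 of 19 glycolysis genes fell, against 1.09% of all genes higher and 1.45% lower. PPARGC1A, from 5.92 and 6.17 CPM untreated, went to 7.82 and 8.31 CPM with TGFB1 (log2 fold change 0.42 ± 0.09, edgeR adjusted p = 7.6e-04) and to 1.67 and 1.83 CPM with PI3Ki (−1.79 ± 0.10, adjusted p = 9.2e-11). With TGFBRi it stood at 4.85 and 5.68 CPM and did not pass the test (adjusted p = 0.34).

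By cluster the treatment experiment repeated the spread among drug-susceptible cells. Primed clusters 4 and 10 held 22787 and 24747 CPM of members. Cluster 6, drug-susceptible and 88.5% from PI3Ki libraries, held 23987 CPM, and cluster 11, also drug-susceptible, held 30500.0 CPM, the highest of all. The totals behind these levels differed in make-up. Cytosolic ribosomal and mitochondrially encoded genes took 31.05% and 11.55% of UMIs in cluster 6. They took 25.64% and 7.91% in cluster 4 and 21.5% and 8.37% in cluster 10. Levels by cluster without these classes were not computed. Of the 355 cells of cluster 11, 271 came from the PI3Ki r2 library and 15 from PI3Ki r1. SDHB was at 67.7 CPM in cluster 6 and 54.3 CPM in cluster 11, its lowest value in any cluster, beside 63.0 CPM in primed cluster 4. NDUFA4L2 was lowest in cluster 6, at 0.399 CPM, and highest in primed cluster 4, at 2.37 CPM.

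The third question is whether the promoters differ in open chromatin between the sorts. Of the 72 members with a promoter and a test, 67 (93.1%) had a peak over the promoter in all 12 libraries, against 79.8% of 12237 genes. Their median fold enrichment, which MACS2 takes over the local background, lay between 40.1 and 53.1 per library, and that of all genes between 34.6 and 44.0. ATP5MC1 had the strongest peak of the 67, with 159, 168 and 185 in EGFR-NGFR-High and 134, 151 and 160 in Mix. NDUFS8 had a median of 87.6 over the 12 libraries, SDHB of 62.1 and ATP5F1C of 30.5. NDUFA4L2 had a peak in 11 of 12 libraries with a median of 5.87. COX6B2, COX7A2, COX8C and NDUFA5 had no peak over their window in any library, nor did COX6A2 and COX7B2, which are not among the 72. COX7A2, at 548 and 505 CPM in the untreated libraries of the treatment experiment, and NDUFA5, at 113 and 124 CPM, were well expressed. For these genes a window without a peak thus did not go with a low message.

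Between the EGFR-NGFR-High and Mix sorts the medians of members and of all genes lay close together. The median difference of log2 enrichment, EGFR-NGFR-High minus Mix, was 0.0756 for the members and 0.0787 for all genes, and with 1 replicate left out that of the members ranged from 0.00127 to 0.18. In 7 members the 3 EGFR-NGFR-High libraries lay above the 3 Mix libraries, against 11.7% of 9843 genes, and in none below, against 2.18%; a comparison of 3 with 3 cannot go below an exact permutation p of 0.1. The 7, named after their values were seen, were COX4I1, COX5B, COX8A, NDUFA10, NDUFA4, NDUFS4 and UQCRC2. NDUFS4 had the largest difference, 0.81, with 15.9, 19.0 and 19.4 in EGFR-NGFR-High and 8.48, 10.2 and 12.5 in Mix. For SDHB, ATP5F1C and NDUFS8 the differences were 0.07, −0.05 and 0.12, and their libraries overlapped.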

How the data were processed

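The authors deposited raw counts of UMIs for the 10x 3′ libraries, which they made with Cell Ranger against hg38 and merged with no scaling for depth, after removing cells by gene number and mitochondrial share in Seurat. Versions of Cell Ranger and its annotation were not given in the sources used here. For ATAC-seq the authors deposited peaks called in each library with MACS2 2.1.1.20160309 after alignment with Bowtie2 2.3.4.1 and filtering with SAMtools 1.1. The fold enrichment in these lists is a ratio over local background, and the −log10 of the q-value in the deposited lists was used for a stricter list.

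Here counts were summed per library and state with numpy 2.4.6 and pandas 2.3.3 in Python 3.11.15 and scaled to CPM. States, clusters, phases and filters were the authors' own, and no doublet caller was run. A gene passed at 20 CPM in a state. Intervals are exact Poisson intervals at 95% (scipy 1.17.1). The treatment libraries were fitted in edgeR 4.0.16 (R 4.3.3) with filterByExpr, TMM (factors 0.941 to 1.05) and terms for treatment and replicate, which left 3 residual degrees of freedom. Tests were two-sided quasi-likelihood tests with Benjamini-Hochberg adjustment over all genes tested and a threshold of 0.05, and a standard error is the log2 fold change over the square root of F. The replicate numbers pair the libraries: per the study's methods 1 starting well supplied all 4 plates of a replicate, and over genes the r2 minus r1 differences of any pair of treatments had a Pearson's r of 0.323 to 0.547. The procedure was tested on simulated data. A promoter had a peak where a peak overlapped its window.

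Members come from the rule on symbols. The members and gene lists were chosen with earlier results of these data known. Named with values are up to 10 members at each end past the threshold for each treatment, 8 at each end of the CPM ratio in WM989 (1 at the high end is not reported here) and 5 in WM983B, the 5 with the highest CPM in untreated cells, isoform families, the subunits of complex II, the members that are no subunit, PPARGC1A and mitochondrially encoded genes. Other members named beside these were chosen after their values were seen. The alternatives tried were DESeq2 1.42.0, no filter on low counts, no replicate block, 1 cell state, G1 cells, equal cell numbers (3692 per library), other totals, left-out libraries and other peak rules.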

Additional observations from a re-analysis of the deposited data

Results flagged for a closer look

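None of the 5 members that were higher in the primed cells of all 8 WM989 wells was higher in those of WM983B. Of all 78 members past 20 CPM in WM983B, only 8 were higher. The ratios in WM983B were 0.966 for ATP5MG, 0.908 for NDUFB4, 0.945 for ATP5PD, 0.991 for NDUFS8 and 0.896 for COX5B. For NDUFS8 and ATP5MG the exact Poisson 95% intervals of the states overlapped, at 151.1 to 158.1 and 152.7 to 159.4 CPM for NDUFS8 and 232.6 to 241.2 and 241.1 to 249.4 CPM for ATP5MG. WM983B is 1 library, so the difference between the lines was not tested.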

How the results depend on the processing

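Among 192 recomputed values, 27 moved with a library or replicate left out and 33 under other settings. The states' ratio in WM989 was 0.939 in G1 cells, 0.846 without mitochondrially encoded genes in the totals, 0.788 without ribosomal proteins too and 0.881 with equal weight for wells. The members lower in all 8 wells were 29 in G1 cells in place of 45, beside 31.0% of all genes in place of 38.2%. Those higher were 3, 2 and 1 under the first 3 of these settings in place of 5. The shares of all genes higher were 27.3%, 24.7% and 21.8% in place of 29.8%. In WM983B the ratio was 0.937, 0.906 and 0.895 under the same 3. With 1 replicate left out the WM989 ratio was 0.897 to 0.909, with 49 to 53 members lower and 7 to 10 higher in the remaining wells. Beside these, 43.4% to 45.7% of all genes were lower and 34.8% to 35.3% higher.

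Under TGFB1 7 members were called lower with no replicate block (7.82% of all genes), 2 in drug-susceptible cells (6.32%) and 1 in primed cells (7.09%). The replicate block is a term for paired libraries. With no replicate block PI3Ki gave 4 lower and 0 higher, beside 2.11% and 1.42% of genes, and TGFBRi 0 lower (0.158%). Under TGFB1 1 member was called higher in primed cells (6.21% of genes), with equal cell numbers (16.2%) and with plain totals (17.1%). The median under TGFB1 was −0.0073 in drug-susceptible and −0.013 in primed cells. Under PI3Ki 2 were higher with DESeq2 (4.64% of all genes) or no filter (4.1%). In primed cells (0.467%), with equal cell numbers (5.97%) or with plain totals (3.05%) 0 were higher. Under PI3Ki 0 were lower in primed cells (1.32%) and 34 with plain totals (16.1%), where the median of the members was −0.15. Under TGFBRi 3 were lower with no filter (1.35% of all genes) or plain totals (2.1%) and 0 in primed cells (0.302%). Plain totals without TMM were chosen after seeing the data.

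With 1 library left out, TGFB1 gave 3 to 17 lower and 0 to 1 higher (median −0.124 to −0.0377), PI3Ki 3 to 17 lower and 0 to 3 higher (median −0.128 to 0.00546) and TGFBRi 0 to 7 lower and 0 to 7 higher (median −0.00624 to 0.0557), so the sign of the last 2 medians changed. SDHB under TGFB1 kept its call in all settings except primed cells alone (adjusted p = 0.42). For ATAC-seq the peak count was 67 to 68 and the median difference 0.00127 to 0.18. A library held as few as 25 primed cells, which limits the precision of their values.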
